A study of Mus musculus with 14 samples.

Results

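Ring1b, the ubiquitin ligase of Polycomb repressive complex 1 (PRC1), was mapped by chromatin immunoprecipitation with sequencing in mouse cells carrying either wild-type histone H3.3 (H3WT) or the K27M form. The regions described here are the autosomal Ring1b peaks of H3WT cells that no Ring1b peak of K27M cells overlapped by even 1 bp. They numbered 381 of the 1727 autosomal Ring1b peaks of H3WT cells, which is 22.1%. The other 1346 were shared with K27M cells, whose own list held 1777 autosomal peaks, 669 of them found only there. The regions were chosen by the measured Ring1b peak positions of 1 library per genotype, so the presence of Ring1b in one genotype and not the other is the selection itself and is not tested.

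The labels name the cells PDGF neural stem cells, and the design text of the series calls them mouse DIPG cells, a model of the childhood brainstem tumour diffuse intrinsic pontine glioma. All groups share this PDGF background, and the labels give neither the promoter of the histone transgene nor the number of clones. H3WT and K27M cells were each kept for 12 days in DMSO, the solvent control, or in 3 µM EPZ6438 (EPZ), an inhibitor of the PRC2 methyltransferase Ezh2. H3K27me3 had 2 libraries in each of these 4 groups, and Ring1b and Suz12, a PRC2 subunit, had 1 library per genotype, in DMSO. Nothing in the labels says that replicates were separate cultures, so the p-values measure only the spread between libraries, which may be technical.

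Polycomb repression joins a pair of complexes. PRC2 methylates lysine 27 of histone H3, and PRC1 places ubiquitin on histone H2A through Ring1b. Some forms of PRC1 bind H3K27me3 through a chromodomain subunit, and others reach unmethylated CpG islands without that mark, so that Ring1b can lie at marked and at unmarked promoters. In K27M-mutant glioma this lysine is exchanged for methionine in a part of histone H3, and most H3K27me3 is lost while part of it stays at strong Polycomb targets. PRC2 and PRC1 in neural stem cells are known for holding genes of other lineages and of later differentiation silent.

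Promoters under these peaks were rich in CpG. RefSeq promoter sequence (GRCm38.p6, the assembly behind mm10) was read for the 250 bases before each start site. The 195 start sites under the peaks, of 178 genes, had a median of 22 CG dinucleotides in these bases and a median GC content of 66.4%, and 177 (90.8%) held at least 10 CG. Across 31396 autosomal promoters the medians were 6 CG and 52.4%, and 38.3% held at least 10 CG. The 877 promoters under shared peaks had 19 CG and 64.8%, and 82.6% of them held at least 10. The 342 under peaks found only in K27M cells had 23 CG and 66.8%, and 91.2% held at least 10, so this richness is not particular to H3WT-only peaks. CpG density was high at promoters with and without H3K27me3. Of 44 promoters under peaks marked by H3K27me3 in both H3WT DMSO libraries, 36 (81.8%) held at least 10 CG, and of 128 under peaks with the mark in no DMSO library, 120 (93.8%) did. The E-box CACGTG, searched on both strands, was found in 20 of the 195 (10.3%), against 6.02% of all autosomal promoters and 9.12% of those under shared peaks. TTCCCGC, an E2F-type word also searched on both strands, was in 12 (6.15%), against 3.83% of all and 8.32% under shared peaks. Under peaks found only in K27M cells, 12.6% held CACGTG and 10.5% TTCCCGC, so neither word is particular to H3WT-only peaks. These matches describe letters in the window and show no binding.

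The 6 promoters below are printed as examples of 3 of the H3K27me3 patterns at these peaks, which the values further on describe. The largest marked pattern, 95 peaks marked in both H3WT DMSO libraries and K27M DMSO replicate 2 only, is not among them. Pcdh17 and Hecw2 had the mark in both H3WT DMSO libraries and in neither K27M DMSO library. Gm42517 and Slc6a20a had it in all 4, and Cacna2d1 and Zc3h6 in none. Each is written 5′ to 3′ along the gene's strand and ends just before a RefSeq start site, with every CG in capitals. For Cacna2d1 this site lies inside the gene, whose annotated 5′ end is at 15934264.
Pcdh17: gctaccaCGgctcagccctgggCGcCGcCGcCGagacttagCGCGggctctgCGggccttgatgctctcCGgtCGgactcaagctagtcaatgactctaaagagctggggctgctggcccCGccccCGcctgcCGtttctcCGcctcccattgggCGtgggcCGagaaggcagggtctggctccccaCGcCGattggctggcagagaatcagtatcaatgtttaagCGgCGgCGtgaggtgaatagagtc
Hecw2: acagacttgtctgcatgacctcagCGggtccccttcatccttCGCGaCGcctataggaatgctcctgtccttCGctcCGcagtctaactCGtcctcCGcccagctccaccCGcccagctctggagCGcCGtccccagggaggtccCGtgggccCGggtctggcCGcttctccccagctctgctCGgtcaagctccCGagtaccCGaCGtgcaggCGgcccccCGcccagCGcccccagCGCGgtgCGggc
Gm42517: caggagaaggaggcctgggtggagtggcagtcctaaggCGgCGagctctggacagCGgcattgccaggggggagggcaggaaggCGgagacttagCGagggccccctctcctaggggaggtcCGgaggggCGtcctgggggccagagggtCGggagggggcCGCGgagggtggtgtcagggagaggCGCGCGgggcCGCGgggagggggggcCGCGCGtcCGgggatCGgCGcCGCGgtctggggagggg
Slc6a20a: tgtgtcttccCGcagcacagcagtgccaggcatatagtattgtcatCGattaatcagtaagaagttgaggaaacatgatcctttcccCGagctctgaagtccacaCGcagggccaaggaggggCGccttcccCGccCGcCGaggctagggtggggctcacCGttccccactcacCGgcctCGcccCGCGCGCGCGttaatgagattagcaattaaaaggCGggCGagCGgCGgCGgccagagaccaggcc
Cacna2d1: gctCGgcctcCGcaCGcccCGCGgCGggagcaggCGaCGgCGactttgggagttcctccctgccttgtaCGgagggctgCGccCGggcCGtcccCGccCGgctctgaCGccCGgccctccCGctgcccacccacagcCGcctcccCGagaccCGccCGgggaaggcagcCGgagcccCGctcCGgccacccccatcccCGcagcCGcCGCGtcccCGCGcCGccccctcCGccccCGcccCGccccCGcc
Zc3h6: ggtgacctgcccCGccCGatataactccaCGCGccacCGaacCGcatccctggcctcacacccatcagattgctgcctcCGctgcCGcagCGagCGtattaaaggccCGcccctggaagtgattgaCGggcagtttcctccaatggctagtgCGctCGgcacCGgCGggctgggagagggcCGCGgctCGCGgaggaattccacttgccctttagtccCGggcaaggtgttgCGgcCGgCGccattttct
The coordinates of these stretches are chr14:84443313-84443562 (plus strand) for Pcdh17, chr1:54195035-54195284 (minus strand) for Hecw2, chr5:108367918-108368167 (minus strand) for Gm42517, chr9:123678833-123679082 (minus strand) for Slc6a20a, chr5:15934441-15934690 (plus strand) for Cacna2d1 and chr2:128967152-128967401 (plus strand) for Zc3h6. They hold 21, 24, 23, 21, 36 and 24 CG in the same order, with the unmarked Cacna2d1 and Zc3h6 last. These few examples cannot show whether CG number differs between marked and unmarked promoters. Over all promoters under these peaks, the median was 21 CG where both H3WT DMSO libraries had the mark. It was 24 CG where no DMSO library had it, and the medians were not compared by a test.

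The peaks were short. Their median width was 1266 bp, with quartiles of 1064 and 1587 bp, and 334 (87.7%) were under 2 kb. Shared peaks had a median of 1873.5 bp, 55.9% were under 2 kb, and the widest reached 69197 bp against 11243 bp here. Peaks found only in K27M cells were short as well, with a median of 1376 bp and 82.8% under 2 kb. Only 3 of the 381 were 5 kb or wider, against 224 shared peaks. The narrowest deposited peak in any list is 1001 bp, so many of these lie near that floor. Since a longer peak has more chances of meeting a peak of the other list, width is tied to the rule. Among H3WT Ring1b peaks of at least 2 kb, 47 of 641 (7.33%) had no K27M peak. On X, left out by the rule, 5 of 27 (18.5%) had none.

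Most lay far from any K27M Ring1b peak, but most were also far from the next Ring1b peak of H3WT cells. The distance to a K27M peak exceeded 100 kb for 314 of the 381, while 14 were within 5 kb and 4 within 1 kb. To the next H3WT peak it exceeded 100 kb for 291 of the 381, so such distances are common among these peaks. The member closest to the limit was at chr15:60822661-60823856, with a gap of 134 bp. Next were a peak near a start site of Ocln on chromosome 13 (197 bp) and one in Prss12 on chromosome 3 (486 bp). Ocln encodes the tight junction protein occludin. On the other side of the limit, the smallest overlaps among shared peaks were 843 bp at Brd2, 905 bp at Ube2r2 and 925 bp at chr12:112698713-112699714, where no gene end was near.

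Of the 381, an H3K27me3 peak overlapped 179 (47.0%, exact 95% interval 41.9 to 52.1%) in H3WT DMSO replicate 1 and 225 (59.1%, 53.9 to 64.0%) in replicate 2. In K27M DMSO the numbers were 46 (12.1%, 8.98 to 15.8%) in replicate 1 and 161 (42.3%, 37.2 to 47.4%) in replicate 2. Both K27M libraries were thus below both H3WT libraries. The mean was 53.02 ± 8.54% in H3WT and 27.2 ± 21.3% in K27M (SD, n = 2 each), a difference of -25.9 percentage points. A two-sided exact permutation test gave p = 0.333, the smallest value that 2 against 2 libraries can give. The K27M libraries differed widely from each other. Within replicate number the difference was -34.9 points for replicate 1 and -16.8 points for replicate 2. The lists themselves differed in size, with 13358 and 59899 H3K27me3 peaks in H3WT and 2351 and 17980 in K27M, and the part of list size or read depth in these shares was not tested. Intervals cover the counting of peaks only.

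At shared Ring1b peaks the H3WT and K27M libraries were closer. H3K27me3 overlapped 66.0% and 71.0% of them in the H3WT DMSO libraries and 62.5% and 68.7% in the K27M DMSO libraries. Over all 8 H3K27me3 libraries, the share was lower at the H3WT-only peaks than at shared ones in 8 of 8, by a mean of 22.1 points (difference -22.1; two-sided exact sign-flip permutation test, p = 0.00781, the smallest this design allows; 0.0234 after Benjamini-Hochberg adjustment over 3 comparisons). Much of that gap went with width. Among Ring1b peaks under 2 kb the mean difference was -8.02 points (exact permutation p = 0.00781), and by the share of length covered, with all widths, it was -38.3 points. In the under-2-kb peaks the libraries separated by genotype. The difference was -4.89 and -0.230 points in H3WT DMSO, and -31.3 and -12.1 points in K27M DMSO. With the 4 DMSO libraries alone the mean over all widths was -27.0 points and the exact permutation p was 0.125, the smallest possible with 4.

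**Figure D1:**
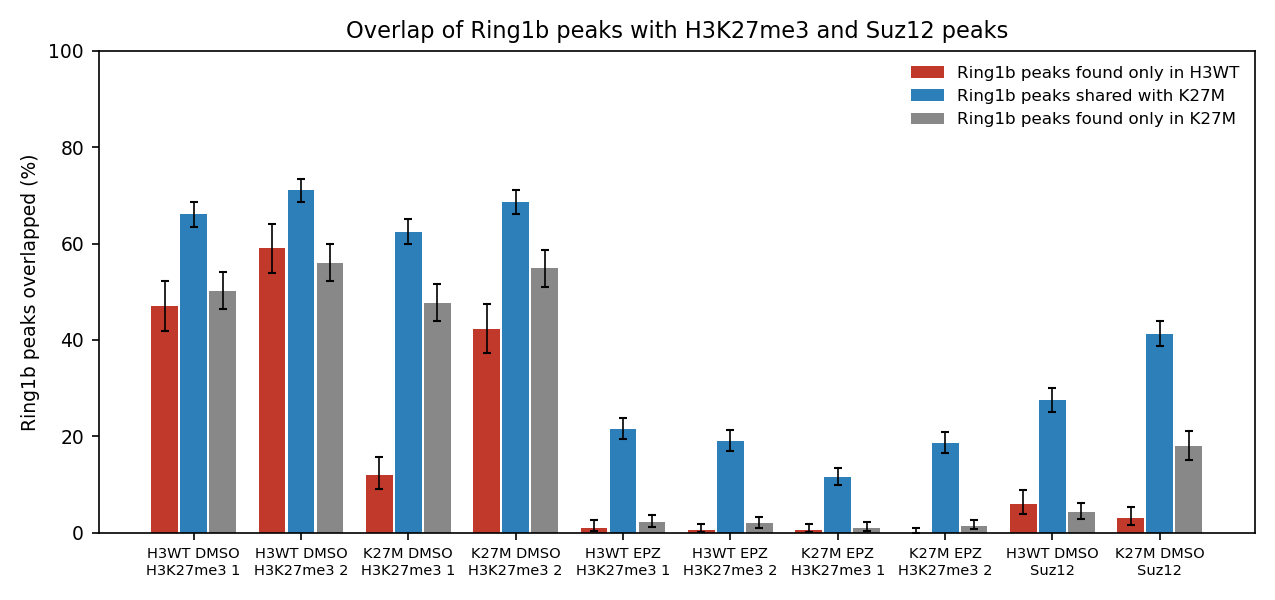
Percent of Ring1b peaks overlapped by the peaks of each H3K27me3 or Suz12 library (x axis), for peaks found only in H3WT cells (red, n = 381), shared with K27M cells (blue, n = 1346) and found only in K27M cells (grey, n = 669). Bars are shares, and whiskers are exact 95% intervals over peaks. The red bar falls from 47.0% to 12.1% between the replicate 1 DMSO libraries while the blue bar goes from 66.0% to 62.5%.

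The same contrast appears when each peak is followed from H3WT to K27M. Of the 179 peaks marked in H3WT DMSO replicate 1, 46 were marked in K27M replicate 1 (25.7%, exact 95% interval 19.5 to 32.8%). Of the 225 marked in replicate 2, 161 were marked in K27M replicate 2 (71.6%, 65.2 to 77.4%). For shared peaks the corresponding shares were 93.0% and 96.3%, and for peaks found only in K27M cells 90.2% and 96.0%. The difference was also seen among peaks under 2 kb. There, 27.9% and 72.2% of the marked H3WT-only peaks stayed marked, against 88.6% and 93.4% of the shared ones. Widths were not matched within this range, so the part of width was not tested. In each replicate number 0 of the 381 was marked in K27M and not in H3WT. Such peaks were also few among the shared ones, with 14 and 4 of 1346, so no contrast is drawn from these counts. With 2 replicate numbers no exact test of the difference in the share that stayed marked can pass 0.05.

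Almost no H3K27me3 peak was called at these regions in EPZ. The H3WT EPZ libraries overlapped 4 (1.05%) and 2 (0.525%) of the 381, and the K27M EPZ libraries 2 (0.525%) and 0 (exact 95% upper bound 0.964%). The mean fell from 40.1 ± 19.97% in the 4 DMSO libraries to 0.525 ± 0.429% in the 4 EPZ libraries (SD), with no overlap between the groups. The difference was -39.6 points (two-sided exact permutation test, p = 0.0286, the smallest for 4 against 4, and 0.0429 after Benjamini-Hochberg adjustment). Relabelling only within each genotype gave an exact permutation p of 0.0556, again the smallest that design allows. The fall from DMSO to EPZ was 25.3 points larger in H3WT than in K27M cells (exact permutation p = 0.333). Both EPZ means were near 0, at 0.787% in H3WT and 0.262% in K27M. This value thus largely repeats the difference between the DMSO groups (-25.9 points, K27M minus H3WT). It is no separate measure of the response to EPZ. Shared peaks still carried the mark at 21.5% and 19.02% in H3WT EPZ and at 11.5% and 18.6% in K27M EPZ. That contrast was mostly with wide peaks. For shared peaks under 2 kb the shares were 5.98% and 4.92% in H3WT EPZ and 2.53% and 3.72% in K27M EPZ. Peaks found only in K27M cells had 2.24% and 1.94% in H3WT EPZ and 1.05% and 1.49% in K27M EPZ. The EPZ lists held between 201 and 340 peaks.

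The 4 regions that kept an EPZ peak were all inside genes and marked in all 4 DMSO libraries. They were in Tfap2b, an AP-2 transcription factor, in Slc17a6, the vesicular glutamate transporter VGLUT2, in Cadps, a factor of dense-core vesicle release, and in Skor2, a corepressor of Purkinje cell development. They are named because of these values. In the 10 kb around the midpoint of the Cadps peak, H3K27me3 covered 10 kb in both H3WT DMSO libraries and 5.99 and 9.22 kb in K27M DMSO. Under EPZ it still covered 8.17 and 6.12 kb of the window in H3WT cells, against 2.64 and 2.74 kb in K27M cells.

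Across the 4 DMSO libraries the peaks fell into few patterns. No H3K27me3 was called at 155 (40.7%), and 178 (46.7%) were marked in both H3WT libraries. Of these 178, the mark was called in all 4 libraries at 46, in both H3WT libraries and K27M replicate 2 at 95, and in both H3WT libraries with neither K27M library at 37. The remaining 48 were marked in H3WT replicate 2 alone (27), in both replicate 2 libraries (20), or in H3WT replicate 1 alone (1). Among the 1346 shared peaks, 827 (61.4%) were marked in all 4 and 5 (0.371%) in both H3WT libraries and neither K27M one.

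**Figure D2:**
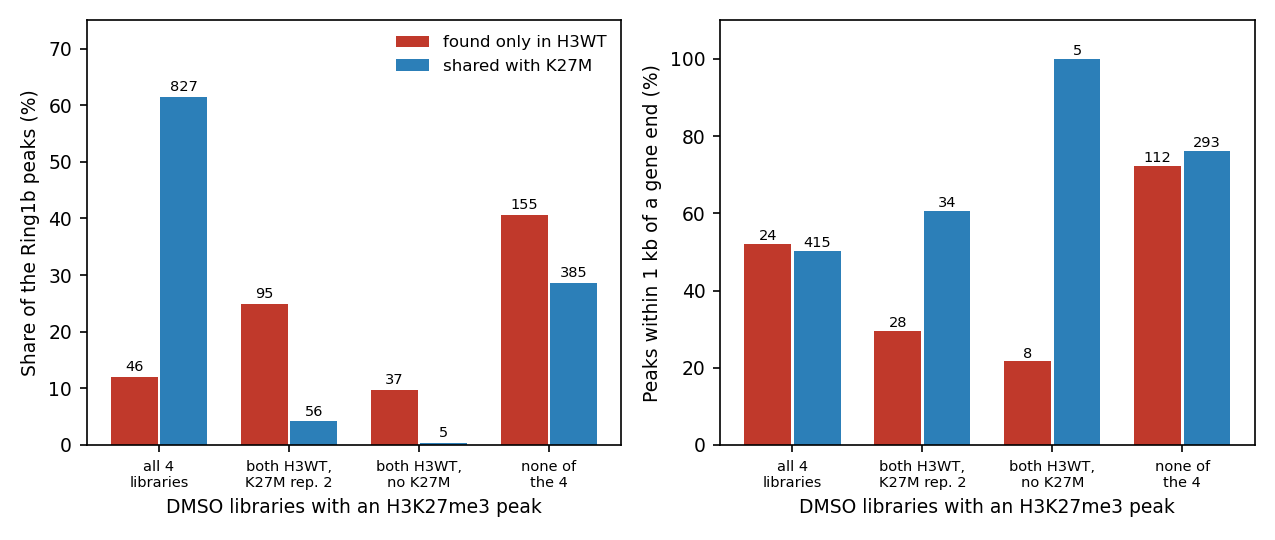
Left, percent of Ring1b peaks (y axis) by the DMSO libraries that carry an H3K27me3 peak there (x axis), for peaks found only in H3WT (red) and shared peaks (blue). Right, percent of each class within 1 kb of a gene end. Numbers over the bars are peaks. Marked in all 4 are 46 red and 827 blue peaks, and both colours are near gene ends most often in the class without H3K27me3, apart from the 5 shared peaks marked only in H3WT.

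Marked and unmarked peaks lay in different places. Of the 155 without H3K27me3, 112 (72.3%) had a gene end within 1 kb and 13 lay between genes. Of the 178 marked in both H3WT libraries, 60 (33.7%) had a gene end within 1 kb, 62 lay inside a gene and 56 between genes. At the 37 with the mark in H3WT only, the median width was 1713 bp and 8 had a gene end within 1 kb. Shared peaks showed the same split, with a gene end at 76.1% of unmarked peaks and 51.1% of marked ones. Of all 381, 196 (51.4%) were at a gene end, 106 (27.8%) inside a gene and 79 (20.7%) between genes. These shares carry no test, as peaks of 1 library are not replicates.

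The extent of the mark around the peaks also differed by class. At the 37 peaks marked only in H3WT, H3K27me3 covered a median of 4.34 and 9.03 kb of the surrounding 10 kb in the H3WT libraries. In K27M replicate 1 all 37 had 0 kb, and in replicate 2 30 had 0 and the highest was 2.49 kb. At the 95 marked also in K27M replicate 2, the medians were 6.32 and 9.54 kb in H3WT, 0 in K27M replicate 1 and 4.79 kb in K27M replicate 2. At the 46 marked throughout, they were 7.88 and 10 kb in H3WT and 3.26 and 8.19 kb in K27M. Of the 155 unmarked peaks, 122 (78.7%) had no H3K27me3 anywhere in the 10 kb in any of the 8 libraries. Among unmarked shared peaks it was 324 of 385 (84.2%). The peak overlap that sorts the classes is a part of the same window, so these levels describe the classes.

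**Figure D3:**
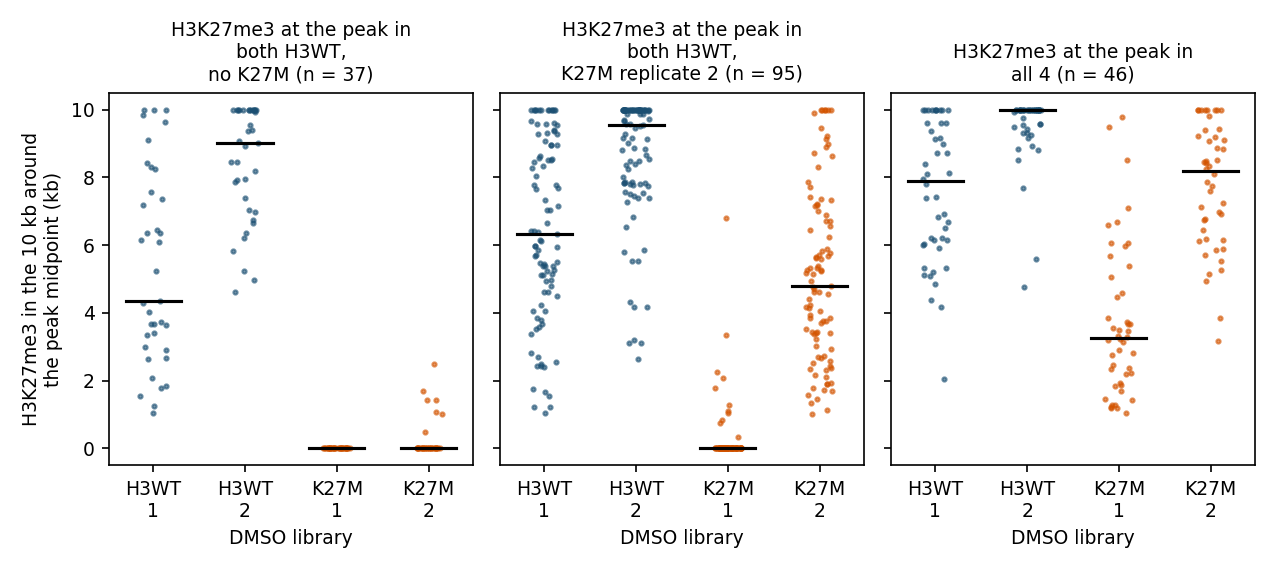
Length under H3K27me3 peaks (kb, y axis) within the 10 kb around each Ring1b peak found only in H3WT, in the 4 DMSO libraries (x axis), for the classes of 37, 95 and 46 peaks. Points are peaks and black lines medians. In K27M replicate 1 the median is 0 in the first 2 panels and 3.26 kb in the third.

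The mark thinned out with distance, to a different degree in each library. In H3WT replicate 1 an H3K27me3 peak covered the midpoint of 42.8% of the 381 peaks, and 18.6% at 5 kb and 11.3% at 10 kb to the right. In H3WT replicate 2 these shares were 55.4%, 40.2% and 26.8%. K27M replicate 2 went from 36.2% at the midpoint to 11.8% at 5 kb, and K27M replicate 1 from 9.19% to 2.62%. Around shared peaks the fall was more gradual in the same library, from 62.3% to 50.1% at 5 kb in H3WT replicate 1 and from 59.0% to 42.2% in K27M replicate 1. In replicate 2 it was from 68.4% to 61.7% in H3WT and from 67.2% to 55.2% in K27M. Shared Ring1b peaks were also wider, and the part of width in this was not tested.

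**Figure D4:**
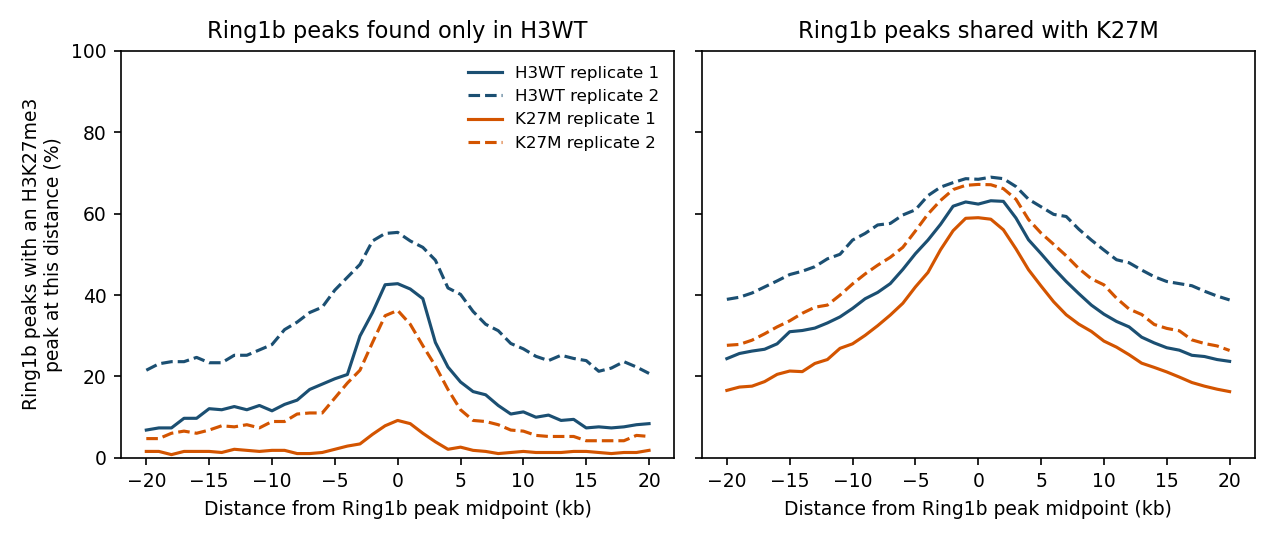
Percent of Ring1b peaks with an H3K27me3 peak (y axis) at each distance from the Ring1b peak midpoint (x axis, kb), for peaks found only in H3WT (left) and shared peaks (right). Blue lines are H3WT and orange K27M DMSO libraries, solid for replicate 1 and dashed for replicate 2. On the left, K27M replicate 1 stays at or below 9.19%. On the right it reaches 59.0% at the midpoint.

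Suz12 was rare at these peaks. It overlapped 23 (6.04%, exact 95% interval 3.86 to 8.92%) in H3WT and 12 (3.15%, 1.64 to 5.44%) in K27M. Of these, 7 were overlapped in both genotypes, 16 were overlapped in H3WT alone, 5 in K27M alone and 353 in neither. All 23 H3WT overlaps were on peaks marked by H3K27me3 in both H3WT libraries, and 0 of the 155 unmarked peaks had Suz12 in either genotype. Shared Ring1b peaks had Suz12 at 370 (27.5%) in H3WT and 556 (41.3%) in K27M, where the share was higher in K27M. Of these 370, 369 were marked in both H3WT libraries, and the 385 unmarked shared peaks had Suz12 at 0 in H3WT and 1 in K27M. Peaks found only in K27M cells had Suz12 at 29 (4.33%) in H3WT and 120 (17.9%) in K27M. Neither the low H3WT share nor the tie to marked peaks is thus particular to H3WT-only peaks. The Suz12 lists held 631 peaks in H3WT and 1252 in K27M. With 1 Suz12 library per genotype there is no replicate check, and the part of list size was not tested.

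The 7 peaks with Suz12 in both genotypes were at Grem1, a BMP antagonist, Rspo1, an enhancer of Wnt signalling, Vgf, a neuropeptide precursor, the kinesin Kif26b, the growth regulator Phlda2, the collagen Col13a1, and Ocln. These genes are named because of this overlap. The Grem1 peak (chr2:113757132-113758473, at the 5′ end of the gene, 113748675 to 113758648) had 6.69 and 9.75 kb of H3K27me3 in its 10 kb window in H3WT DMSO and 3.56 and 7.59 kb in K27M DMSO, and 0 in all 4 EPZ libraries. Both genotypes thus had Suz12 and H3K27me3 there in DMSO. The 5 with Suz12 in K27M alone were at gene ends of Snai2 and Ahnak, inside Kif5c and Prss12, and between genes at position 89298330 of chromosome 11.

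Among the widest peaks at gene ends, several had the mark in H3WT and lost part or all of it in K27M. The Pcdh17 peak (chr14:84443102-84446765, over the start of the gene at 84443563 to 84537565) was 3.664 kb wide. Pcdh17 encodes a protocadherin of neuronal adhesion. H3K27me3 covered 3.66 and 7.91 kb of its window in H3WT DMSO and 0 in both K27M DMSO and all 4 EPZ libraries, and Suz12 was present in H3WT and not in K27M. At Hecw2, a ubiquitin ligase gene (chromosome 1, 53806872 to 54195034), the cover was 3.67 and 6.36 kb in H3WT DMSO and 0 in K27M, with Suz12 in H3WT alone. At both Ring1b peaks H3K27me3, Suz12 and Ring1b were thus called in H3WT and none of the 3 in K27M. The rest of these genes was not read. The Ring1b difference is the rule itself, and both were named in part for the H3K27me3 pattern and for Suz12 in H3WT.

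Of the 10 widest gene-end peaks, 5 had the mark in both H3WT libraries and in K27M replicate 2 but not in K27M replicate 1. The widest (chr7:90475508-90480595) spanned the start of Tmem126b and the 5′ end of the neighbouring Dlg2, a synaptic scaffold gene in which most of it lay, with 5.38 and 7.26 kb of H3K27me3 in the H3WT DMSO libraries and 0 and 3.40 kb in the K27M ones. Fgf12, an intracellular fibroblast growth factor homologue, had 5.86 and 9.57 kb against 0 and 2.16 kb. Rundc3b had 5.12 and 7.75 kb against 0 and 1.69 kb. Ppfia2, a synaptic scaffold of the liprin family, had 5.51 and 8.54 kb against 0 and 2.57 kb, and Galnt3, a glycosyltransferase, 2.43 and 7.46 kb against 0 and 5.84 kb. No Suz12 peak lay on these 5 in either genotype.

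The other gene starts marked in H3WT alone had no Suz12 in either genotype. Elavl2, a neuronal RNA-binding protein, had 8.24 and 8.94 kb of H3K27me3 in the H3WT libraries against 0 and 1.42 kb in K27M. Slitrk1, a synaptic adhesion protein, had 3.35 and 8.19 kb against 0 and 1.00 kb, and Cr2, a complement receptor, 9.86 and 10 kb against 0 and 1.42 kb. Prkg1, the cGMP-dependent kinase, had 6.16 and 10 kb against 0 and 1.09 kb. Rbm11, a splicing regulator, had 5.24 and 7.40 kb and Fam78b 2.68 and 6.20 kb, both with 0 in K27M. In K27M replicate 1 the value was 0 at each of these 6 genes.

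The widest gene-end peaks marked in all 4 DMSO libraries also had less H3K27me3 in K27M than in H3WT of the same replicate number. At Slc6a20a, an amino acid transporter gene (chromosome 9, 123636907 to 123678832), the window held 5.09 and 10 kb in H3WT DMSO and 3.21 and 5.86 kb in K27M DMSO. At Gm42517 it held 6.91 and 9.57 kb against 4.60 and 9.20 kb. Tmem132e had 6.02 and 8.501 kb against 1.85 and 6.73 kb, and Mctp1, a calcium-binding membrane protein, 7.44 and 10 kb against 1.28 and 4.95 kb. Celf4, a neuronal RNA-binding protein on chromosome 18, had 6.15 and 9.31 kb against 2.24 and 6.19 kb, and Kif26b 6.82 and 9.44 kb against 2.34 and 7.88 kb. Slc6a20a and Tmem132e had Suz12 in H3WT alone, and Kif26b in both genotypes.

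Suz12 in H3WT alone was also found at 5 more of the named genes. Npy, the neuropeptide Y precursor, had 8.71 and 10 kb of H3K27me3 in H3WT DMSO and 2.89 and 8.52 kb in K27M DMSO. Htr7, a serotonin receptor, had 9.12 and 10 kb against 2.20 and 8.26 kb, and Grm8, a metabotropic glutamate receptor, 4.18 and 8.80 kb against 1.88 and 3.86 kb. Fgf20, a fibroblast growth factor, had 9.59 and 10 kb against 0 and 9.91 kb, and Lepr, the leptin receptor, 5.45 and 7.87 kb against 0 and 4.62 kb. At Fgf20 the K27M replicates were at opposite ends of the range. All these genes had 0 kb in the EPZ libraries.

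The next genes had the widest of the gene-end peaks without H3K27me3. The Cacna2d1 peak (chr5:15934067-15936708) covered the start of a calcium channel subunit gene and was 2.642 kb wide. Zc3h6, a zinc finger gene, had a peak of 1.826 kb. Others were at Exosc10, a subunit of the RNA exosome, beside Mtor, at Usp25, a deubiquitinase, and at Tril, a Toll-like receptor accessory protein. Each had 0 kb of H3K27me3 in the 10 kb window in all 8 libraries. The Sgcz peak, counted in the same class, had 1.92 kb in H3WT replicate 2, beside the Ring1b peak and not under it.

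An end of 213 autosomal protein-coding genes lay within 1 kb of one, which is 1.03% of 20665, and 814 genes (3.94%) had a shared peak. Only 1 gene had both, a number that the rule nearly fixes, since no peak can be in both sets. The gene lists used here were chosen with earlier results of these data known, and are described by counts without a test.

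The lists of developmental transcription factors had shared peaks at many gene ends and H3WT-only peaks at none. Of 39 Hox genes 0 had an H3WT-only peak and 36 had a shared one. For other homeobox and paired-box factors the numbers were 0 and 75 of 101, and for other lineage factors 0 and 66 of 102. An H3WT-only peak was at 1.03% of all genes, so 0 in lists of this size is near that background and is not a result about them. Transcription factors outside the lists did have an H3WT-only peak at a gene end, among them Snai2, Foxp1, Cebpa, Klf1, Hes6 and Tgif1, which are named because of these peaks. The peaks at Cebpa, Hes6 and Tgif1 had H3K27me3 in no DMSO library, those at Foxp1 and Klf1 in H3WT replicate 2 alone, and that at Snai2 in 3 of the 4. Some of the listed genes had such a peak in the gene body more than 1 kb from its ends. They were Lmx1a, Foxp2, Tbx3, Tfap2b and Tfap2c, which act in neural, limb, neural crest or germ cell development. In the windows of the pair of peaks in Tbx3, H3K27me3 covered 10 kb in both H3WT DMSO libraries and 0 in K27M replicate 1. In K27M replicate 2 it covered 10 and 9.13 kb.

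Adhesion, guidance and matrix genes had H3WT-only peaks at 9 and shared peaks at 6 of 88. The H3WT-only share of 10.2% stands beside 1.03% of all genes, and no test compares them. The 9 were the protocadherins Pcdh10 and Pcdh17, the axon guidance ligand Slit2, the guidance receptors Plxna4, Nrp2, Unc5b and Unc5c, fibronectin (Fn1) and its integrin subunit Itga5. The mark was not uniform among them. Plxna4 had it in all 4 DMSO libraries, with 9.18 and 10 kb in H3WT and 3.46 and 8.83 kb in K27M. Unc5b had 1.76 and 2.63 kb in H3WT and 0 and 1.93 kb in K27M. Nrp2, Unc5c, Fn1 and Itga5 had 0 kb in all libraries. Pcdh10 (peak of 4.003 kb) had H3K27me3 in H3WT replicate 2 alone, at 3.39 kb.

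Of 91 signalling genes, 4 (4.40%) had an H3WT-only peak at a gene end and 18 (19.8%) a shared one. Among all genes these shares were 1.03% and 3.94%, and the small counts here carry no test. The 4 were the ligands Fgf20 and Jag1, a Notch ligand, the antagonist Grem1 and the Wnt receptor Fzd1, of which Jag1 and Fzd1 had no H3K27me3 in their windows. Wnt16 had a peak in its gene body. Among 26 cell cycle inhibitors and p53 targets, 2 (7.69%) had an H3WT-only and 3 (11.5%) a shared peak. The 2 were Gadd45a and Gadd45g, genes of growth arrest after DNA damage. Gadd45a had 0 kb of the mark in all libraries, and Gadd45g 1.35 and 1.27 kb in H3WT and 0 and 0.807 kb in K27M, beside the peak. Among 85 channel, receptor and synaptic genes, Htr7 alone had an H3WT-only peak (1.18%, near the share of all genes), and 5 (5.88%) had a shared one. In that list Scn1a, a sodium channel, and Slc17a6 had a peak in the gene body.

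The remaining 5 lists had no H3WT-only peak at a gene end, which is again near the 1.03% of all genes. Shared peaks were at 7 of 38 Polycomb and H3K27 enzyme genes, 5 of 46 neural stem and glial genes, 1 of 26 microglial, endothelial and mesenchymal markers, 2 of 28 germline genes and 1 of 33 housekeeping genes. In the neural stem list Msi1, an RNA-binding protein of neural stem cells, had a peak in the gene body. The germline list had 2 such members. Dazl, which encodes a translation regulator of germ cells, held the peak chr17:50282631-50290692, which at 8062 bp was the second widest of the 381. H3K27me3 covered 10 kb of its window in both H3WT DMSO libraries and 0 and 2.42 kb in K27M DMSO. Sycp1, a protein of the synaptonemal complex, held a pair of peaks on chromosome 3, the wider at 4307 bp, with 7.36 and 10 kb around it in H3WT DMSO and 0 in both K27M libraries. No Suz12 peak overlapped any of the 3. These gene-body peaks are named because of their width.

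Most peaks stood alone, but some formed runs along 1 gene. When peaks within 100 kb of each other were joined, the 381 gave 347 runs, of which 328 were single peaks, 17 held 2 or 3 and 2 held at least 4. The longest had 13 peaks on chromosome 16, from 37136493 to 37403180. In the run, 10 lay inside Stxbp5l, which encodes the syntaxin-binding protein tomosyn-2, and 3 beyond its end. The run included the widest of the 381, at 11243 bp, and the other peaks ranged down to 1001 bp. All 13 were marked in both H3WT DMSO libraries, 2 in K27M replicate 1 and 7 in K27M replicate 2.

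Over the 267 kb of this run, H3K27me3 covered 158 kb (59.4%) in H3WT replicate 1 and 220 kb (82.4%) in replicate 2. In K27M it covered 11.1 kb (4.17%) and 51.1 kb (19.2%), and 0 in the 4 EPZ libraries. Suz12 covered 1.526 kb in H3WT and 0 in K27M. The region held 14 Ring1b peaks in H3WT and 2 in K27M. The other run had 5 peaks in Ccdc73 on chromosome 2 (104909430 to 104970394). There H3K27me3 covered 71.7% and 81.3% in H3WT and 0 and 16.2% in K27M. Both runs thus lay in long H3K27me3 domains of H3WT cells that were mostly uncovered in K27M.

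On chromosomes 1 and 16 these peaks made up a larger share of the H3WT Ring1b peaks than on the other autosomes. On chromosome 16, 27 of 53 H3WT Ring1b peaks had no K27M peak (50.9%, exact 95% interval 36.8 to 64.9%), and on chromosome 1, 36 of 83 (43.4%, 32.5 to 54.7%). The other autosomes ranged from 11.7% on chromosome 12 to 27.4% on chromosome 8, with 318 of 1591 in all (19.99%, 18.05 to 22.04%). Without the run at Stxbp5l, chromosome 16 fell to 14 of 40 (35.0%, 20.6 to 51.7%). These intervals cover the counting of peaks only and do not decide whether chromosomes differ, as peaks of 1 library are not replicates. The K27M Ring1b list was also short on these chromosomes, with 52 peaks against 83 on chromosome 1 and 37 against 53 on chromosome 16. Elsewhere the ratio of K27M to H3WT Ring1b peaks ranged from 0.867 to 2.04. These counts come from the lists that chose the peaks, so they carry no test.

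Other marks differed on these chromosomes too. The ratio of K27M to H3WT Suz12 peaks was 1.07 on chromosomes 1 and 16 together (60 against 56) and 2.06 on the other autosomes, which ranged from 1.24 to 5.21. For H3K27me3 in DMSO the ratio was 0.136 against 0.201 in replicate 1, and 0.180 against 0.219 in replicate 2. The other autosomes ranged from 0.145 to 0.248 and from 0.152 to 0.277. The combined Suz12 ratio and the combined replicate 1 ratio of H3K27me3 were thus below every other autosome, though chromosome 1 alone had a replicate 1 ratio of 0.147. The replicate 2 ratio lay within the range. Whether the number of copies of these chromosomes or another property of the K27M cells moves with this was not tested. The 63 peaks on chromosomes 1 and 16 carried H3K27me3 at 57.1% and 60.3% in H3WT and 11.1% and 39.7% in K27M. The 318 on the other autosomes had 45.0% and 58.8% in H3WT and 12.3% and 42.8% in K27M. Without these chromosomes the differences in H3K27me3 overlap were -39.2 points for EPZ against DMSO, -24.4 for K27M against H3WT and -22.2 for H3WT-only against shared peaks.

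**Figure D5:**
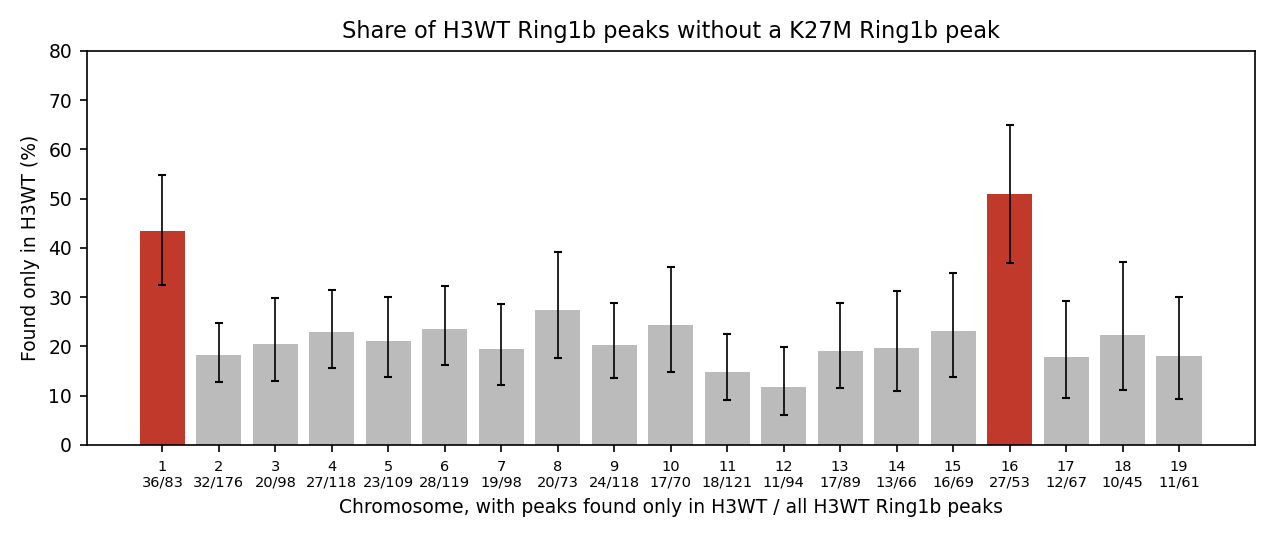
Percent of the H3WT Ring1b peaks of each autosome that have no K27M Ring1b peak (y axis), with the number found only in H3WT over all H3WT peaks under each chromosome. Whiskers are exact 95% intervals over peaks. Chromosomes 1 (43.4%) and 16 (50.9%, of which 13 peaks form 1 run) stand above the rest, which end at 27.4%.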

How the data were processed

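Peak lists of 12 of the 14 libraries were analysed, and the 2 IgG libraries were not analysed here. Per the submitters' processing notes, Bowtie 1.1.2 and mm10 were used. The peak caller, its threshold, its control and the read depth are not given in the sources used here. The deposited lists give the start and end of each peak, 1 list per library. The deposited score was 0 in all 100144 lines, so no peak height was used. Overlapping peaks of 1 list were merged, which removed 21. Overlap meant at least 1 bp, and a gene end within 1 kb counted as at the gene. Genes came from RefSeq (GRCm38.p6), and start sites and promoters from its promoter table, which was not used for chromosome 18. Exact permutation tests were two-sided over libraries, run with numpy 2.4.6 and scipy 1.17.1 and tested on simulated data. Alternatives were the overlap rule, peak width, replicates and chromosomes.

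The regions, gene lists and tests were chosen with earlier results of these data known. The rule for named genes took genes with a gene end within 1 kb of a region. It took up to 4 of each list, the 10 with the widest regions, up to 10 with Suz12 in H3WT, up to 10 marked in H3WT alone, and up to 6 marked in all 4 or in none of the DMSO libraries. Genes with a region only in the gene body, the other adhesion genes, the genes of the 2 runs and of counts given in full, and the transcription factors outside the lists fall outside this rule and were named after their values were seen.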

Additional observations from a re-analysis of the deposited data

How the results depend on the processing

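Of 44 alternatives, 25 with a test kept the direction and the side of the threshold. Among these, the ones of K27M against H3WT in DMSO could not pass 0.05 in any setting, so their side was fixed in advance. Of the other alternatives, 11 without a test kept their direction or stayed within their interval or within 1.5 times. Another 7 kept the direction and no longer passed 0.05, 1 moved a count, and 0 reversed. With the replicate block, in which the signs were flipped within genotype and replicate number, the EPZ difference was -39.6 points with an exact permutation p of 0.125, and relabelling within genotype gave -39.6 points with p = 0.0556. The block left the K27M difference at -25.9 points (exact permutation p = 0.5). These p-values are the smallest such designs allow. Leaving out a replicate gave -50.4 to -28.7 points for EPZ (exact permutation p = 0.333) and -25.2 to -18.9 points for H3WT-only against shared peaks (exact permutation p = 0.125). That comparison gave -27.0 points (exact permutation p = 0.125) in the 4 DMSO libraries alone. With a minimum width of 2 kb the number of regions was 47. Leaving out chromosomes 1 and 16, or the longest run, was added after the data were seen. Read depth is unknown, so a missing peak is not evidence of absent Ring1b.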
